A study of Mus musculus with 10 samples.

Results

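The miR-15/16 family was followed through small RNA libraries of mouse splenic B-cells. The 5 members were taken by name (mmu-miR-16-5p, mmu-miR-15b-5p, mmu-miR-15b-3p, mmu-miR-15a-5p and mmu-miR-195a-5p, written without the mmu prefix from here on). They are 5 of 2015 microRNA rows and of 6968 small RNA features in the count table. The cells were CD43- splenic B-cells of 3 genotypes: wt, 3'RR-deficient and Eµ-deficient (Eu in some labels). The 3'RR is the enhancer cluster downstream of IgH, the immunoglobulin heavy chain locus, and Eµ is its intronic enhancer, deleted here together with the matrix attachment regions beside it. Per the labels all cells were kept in culture for 2 days, without addition (non-stimulated) or with lipopolysaccharide (LPS, a bacterial activator of B-cells) at 5 µg/ml. Both wt and 3'RR-deficient cells had 2 libraries per condition and Eµ-deficient cells had 1, so 10 libraries were analysed. Each library came from the pooled cells of 2 mice, male or female and 8 to 12 weeks old, on a 129 background, so each replicate stands for a pool of animals. The IgH mutations are germline deletions and were present in every cell of the mutant mice.

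A mature microRNA is a short strand cut from one arm of a hairpin and guides a silencing complex to messenger RNAs that pair with its seed, bases 2 to 8 from the 5' end. Members of the miR-15/16 family share a seed and are known for restraining cell cycle and survival genes such as cyclins D1 and E1 and Bcl2. The locus that holds Mir15a and Mir16-1 is deleted in many chronic lymphocytic leukaemias, a tumour of mature B-cells, and the family limits B-cell proliferation in mice.

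Mature sequences of the members are shown first because they decide what each row can count. They are the RefSeq sequences for GRCm38.p6, 5' to 3', with the seed in capitals.
miR-16-5p: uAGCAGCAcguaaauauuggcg
miR-15b-5p: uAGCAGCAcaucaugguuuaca
miR-15a-5p: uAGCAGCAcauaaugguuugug
miR-195a-5p: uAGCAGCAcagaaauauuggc
miR-15b-3p: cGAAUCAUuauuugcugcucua
The seed AGCAGCA was shared by 4 members, and miR-15b-3p, which comes from the other arm of the Mir15b hairpin, had the seed GAAUCAU. The sequences were 21 nt (miR-195a-5p) or 22 nt (the other 4) long, so their read levels need no length correction. The closest pair was miR-195a-5p and miR-16-5p, which are 3 edits apart. The miR-15 paralogues miR-15a-5p and miR-15b-5p were 4 edits apart, and miR-15b-5p and miR-16-5p were 8 edits apart.

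The members lie at 3 loci of mm10. On chromosome 3, in an intron of the plus-strand gene Smc4, which encodes a condensin subunit, the table placed miR-15b-5p at chr3:69009775-69009796, miR-15b-3p at chr3:69009813-69009834 and miR-16-5p at chr3:69009918-69009939, the last inside Mir16-2. On chromosome 14, in an intron of the minus-strand non-coding gene Dleu2, it placed miR-15a-5p at chr14:61632075-61632096. On the plus strand of chromosome 11, miR-195a-5p lay at chr11:70235062-70235082 inside Mir195a. RefSeq gives miR-16-5p a second site, chr14:61631936-61631957 in Mir16-1, beside Mir15a within the same Dleu2 intron. The table has 1 row for miR-16-5p, so this row cannot tell the Mir16-1 copy from the Mir16-2 copy. The hairpins are shown because the products of the loci differ in their partner arms, with the listed members in capitals.
Mir15b: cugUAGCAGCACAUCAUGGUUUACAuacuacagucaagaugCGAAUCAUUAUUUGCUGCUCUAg
Mir16-2: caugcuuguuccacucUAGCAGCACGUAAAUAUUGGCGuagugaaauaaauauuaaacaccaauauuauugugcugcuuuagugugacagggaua
Mir16-1: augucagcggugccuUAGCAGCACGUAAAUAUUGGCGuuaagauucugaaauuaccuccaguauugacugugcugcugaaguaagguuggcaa

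Depth was 3482540 to 18144016 counts per library, and microRNA rows took 51.4% to 82.1% of them. Replicates differed by far more than counting error, with a chi-square of 815 to 3268 per degree of freedom in the 4 groups that had 2 libraries. The second non-stimulated libraries of wt and of 3'RR-deficient cells stood apart from the rest, and they were also the shallowest (3482540 and 3756662 counts, against at least 6054137 in the other 8). Their departures from the first libraries were shared between the genotypes (r = 0.76 over 720 features, a description, since features are not replicates). Among lymphocyte markers, all 5 listed microRNAs (miR-150-5p, miR-155-5p, miR-142a-5p, miR-142a-3p and miR-181a-5p) were detected in all 10 libraries. Both arms of miR-142a were lowest in those second libraries. miR-142a-5p stood at 7357 and 6191 CPM there (microRNA counts brought to a common library size by TMM scaling), against at least 33148 CPM in the other 8, and miR-142a-3p at 265 and 234 CPM, against at least 2053 CPM. miR-181a-5p was highest there, at 43885 and 46255 CPM. Markers of other cells were also present, in ranges that lay lower with LPS but overlapped: the 2 myeloid microRNAs summed to between 479 and 5032 CPM in non-stimulated and to between 82.4 and 512 CPM in LPS libraries. The erythroid microRNAs, all 5 of which were detected, summed to between 2530 and 9290 CPM without and between 167 and 4079 CPM with LPS, leaving out miR-486b-5p, whose values nearly repeat those of miR-486a-5p. Within this list the ranges without and with LPS overlapped for miR-451a (205 to 4514 and 83.4 to 2477 CPM) and for miR-486a-5p (841 to 6202 and 43.8 to 1035 CPM). In wt and 3'RR-deficient cells without LPS, miR-451a was lower in the second than in the first library (205 against 3719 and 367 against 1754 CPM). So were miR-144-3p (2.66 against 119 and 11.8 against 28.9 CPM) and miR-144-5p (30.0 against 792 and 89.1 against 673 CPM). Only miR-486a-5p and its near repeat miR-486b-5p went the other way, with miR-486a-5p higher in the second library (2292 against 841 and 6202 against 1078 CPM). The 4 stromal and endothelial markers summed to between 192 and 1053 CPM without and between 71.2 and 848 CPM with LPS, and the hepatic miR-122-5p stayed at or below 5.62 CPM. The part of such cells in the results below was not tested, and in RNA of whole cultures fewer cells of a type and less RNA per cell cannot be told apart.

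miR-16-5p was the most abundant member in 8 of the 10 libraries and miR-15b-5p in the second non-stimulated libraries of both genotypes. As means over the 10 libraries, miR-16-5p reached 20805 CPM, miR-15b-5p 10409 CPM, miR-15a-5p 821 CPM, miR-15b-3p 280 CPM and miR-195a-5p 35.3 CPM. In single libraries miR-16-5p ranked between 10 and 28 among the mature microRNAs, miR-15b-5p between 8 and 31, miR-15a-5p between 56 and 92, miR-15b-3p between 88 and 145 and miR-195a-5p between 186 and 309.

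miR-16-5p without LPS stood at 36281 and 5324 CPM in the first and second wt library, at 35152 and 6263 CPM in the 3'RR-deficient libraries and at 23929 CPM in Eµ-deficient cells. With LPS it stood at 16293 and 24909 CPM in wt, at 17352 and 28059 CPM in 3'RR-deficient and at 14485 CPM in Eµ-deficient cells. Both second non-stimulated libraries were below all 8 others, and the other 3 non-stimulated libraries overlapped the LPS libraries only through the Eµ-deficient one. As 95% Wilson intervals of a share of microRNA counts are narrow at this depth (2.60% to 2.62% for miR-16-5p in the first wt library), counting error is small beside these gaps. Such an interval covers counting error alone, as reads amplified by PCR do not each stand for a separate molecule.

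miR-15b-5p went the other way in the same libraries. Without LPS it stood at 10425 and 24029 CPM in wt, at 9942 and 19831 CPM in 3'RR-deficient and at 6961 CPM in Eµ-deficient cells. With LPS it stood at 7092 and 8296 CPM in wt, at 5056 and 6838 CPM in 3'RR-deficient and at 5618 CPM in Eµ-deficient cells. Both second non-stimulated libraries were above all 8 others, a place held by 114 of 988 features tested (11.5%). Among the replicated groups, the 2 non-stimulated groups lay wholly above the 2 LPS groups. The share of all features with this order was not worked out, so it describes this row alone. Over all genotypes the conditions overlapped, as the Eµ-deficient non-stimulated library (6961 CPM) lay below both wt LPS libraries.

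miR-15b-3p, the other arm of the same hairpin, did not follow miR-15b-5p. It stood at 331 and 85.6 CPM in wt, 294 and 93.3 CPM in 3'RR-deficient and 289 CPM in Eµ-deficient non-stimulated cells, and at 173 and 433, 255 and 327, and 520 CPM with LPS in the same order. Like miR-16-5p and miR-195a-5p it was lowest in both second non-stimulated libraries, which was so for 148 of 988 features (15.0%).

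miR-15a-5p varied least, between 417 and 1350 CPM. It stood at 1054 and 1350 CPM in wt, 686 and 1009 CPM in 3'RR-deficient and 791 CPM in Eµ-deficient non-stimulated cells. With LPS it stood at 860 and 639, 417 and 900, and 499 CPM in the same order. No library set stood apart for it, and non-stimulated and LPS libraries overlapped.

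miR-195a-5p was the rarest, at 41.7 and 7.33 CPM in wt, 52.3 and 9.47 CPM in 3'RR-deficient and 42.1 CPM in Eµ-deficient non-stimulated cells. With LPS it stood at 24.0 and 46.4, 33.2 and 59.8, and 37.3 CPM in the same order. Per 1000 reads of miR-16-5p there were 1.15 to 1.76 reads of miR-195a-5p without and 1.47 to 2.57 with LPS, a narrower range than that per 1000 reads of miR-15b-5p, which ran from 0.305 to 8.74. Since these sequences differ by 3 edits, whether reads of miR-16-5p with mismatches were counted as miR-195a-5p was not tested.

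**Figure D1:**
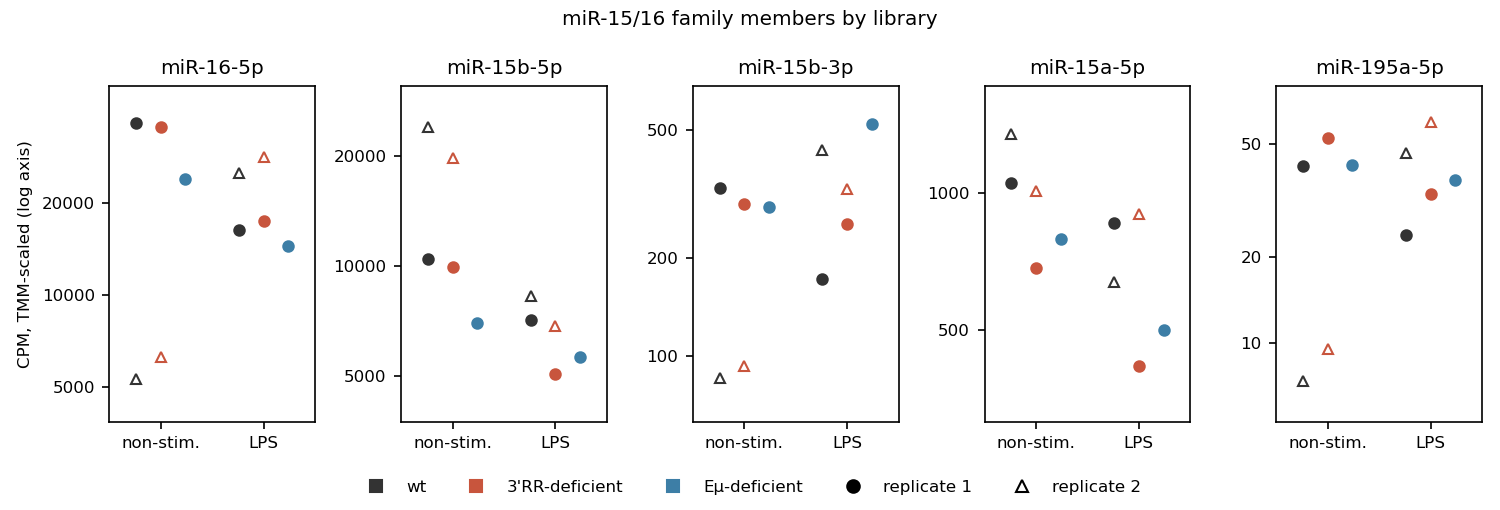
Level of each member in CPM (microRNA counts scaled by TMM, log axis) by condition. Each point is 1 library, filled circles are replicate 1 and open triangles replicate 2, and colours give the genotype. For miR-16-5p the open triangles of the non-stimulated groups lie at 5324 and 6263 CPM, under all other points, and for miR-15b-5p they lie at 24029 and 19831 CPM, above all others.

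Ordered by their means, the 4 replicated groups could rarely be separated. For miR-16-5p the order was 3'RR-deficient LPS (22706 ± 7571 CPM, SD, n = 2), wt non-stimulated (20803 ± 21890), 3'RR-deficient non-stimulated (20707 ± 20428) and wt LPS (20601 ± 6093), and no step between neighbours exceeded the larger of their SDs. The same held for miR-15b-3p and miR-195a-5p. For miR-15b-5p the order was wt non-stimulated (17227 ± 9620 CPM), 3'RR-deficient non-stimulated (14887 ± 6993), wt LPS (7694 ± 851) and 3'RR-deficient LPS (5947 ± 1260), and each of the last 2 steps exceeded the larger SD. For miR-15a-5p the order was the same, and only the step from wt non-stimulated (1202 ± 210 CPM) to 3'RR-deficient non-stimulated (848 ± 229) did so.

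The 4 members with the shared seed were also summed, since they offer the same seed to targets. The sum took 3.44% and 4.14% of the microRNA counts in wt non-stimulated libraries, 3.60% and 3.61% in 3'RR-deficient and 3.77% in Eµ-deficient ones. With LPS it took 2.81% and 2.69% in wt, 2.40% and 2.51% in 3'RR-deficient and 2.53% in Eµ-deficient cells. In this raw share all 5 LPS libraries lay below all 5 non-stimulated libraries, with or without the second non-stimulated ones. On the TMM-scaled CPM the sum overlapped between the conditions, also without those second libraries. There the second wt LPS library stood above the Eµ-deficient non-stimulated one in miR-16-5p (24909 against 23929 CPM) and miR-15b-5p (8296 against 6961 CPM). Of 988 single features, 3.95% had all LPS shares below all non-stimulated shares. As a share of all small RNA counts the sum took between 2.27% and 2.91% without and between 1.30% and 2.00% with LPS. Shares of a library add to a fixed total, and a sum over members was given no test.

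Within this sum the composition differed much more than the total. miR-16-5p made up 67.1% to 78.3% of it in 8 libraries, but 17.3% and 23.1% in the second non-stimulated libraries of wt and 3'RR-deficient cells. In the same 2 libraries miR-15b-5p made up 78.2% and 73.1%, against 19.1% to 29.2% in the other 8. miR-15a-5p contributed at most 4.40% and miR-195a-5p at most 0.181%.

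**Figure D2:**
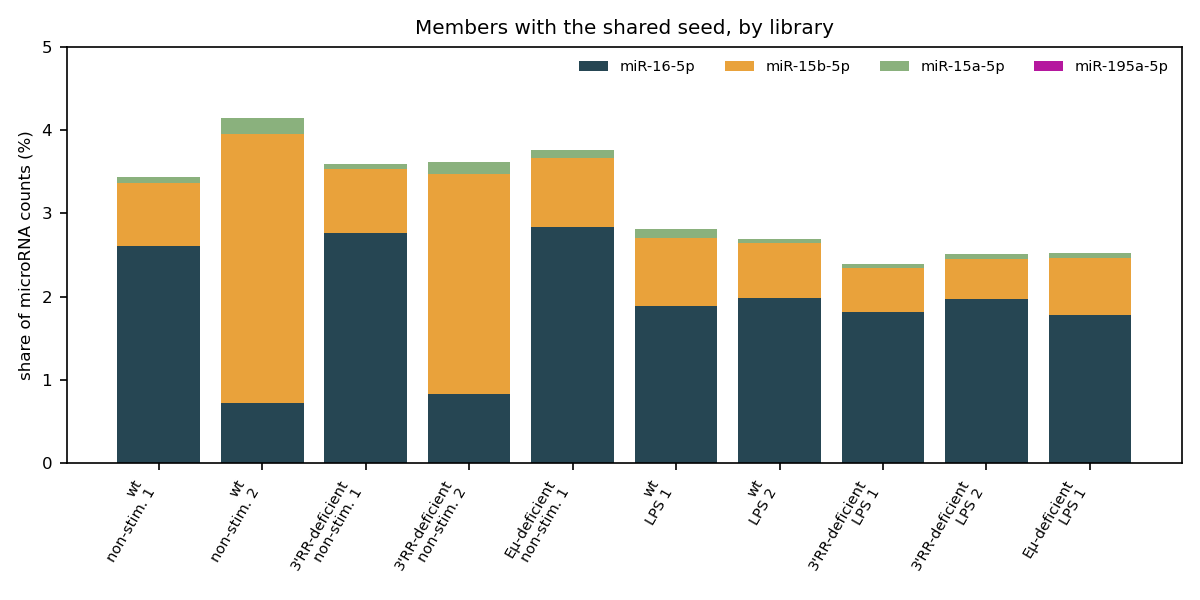
Share of microRNA counts (%, axis from 0) taken by the 4 members with the shared seed, stacked, in each of the 10 libraries. The total is 3.44% to 4.14% in the 5 non-stimulated and 2.40% to 2.81% in the 5 LPS libraries, and miR-15b-5p takes most of it in the second non-stimulated libraries of both genotypes. miR-195a-5p is too small to be seen.

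Ratios within a library do not depend on scaling between libraries. miR-16-5p counts were 2.30 to 4.10 times those of miR-15b-5p in 8 libraries and 0.222 and 0.316 times in the second non-stimulated ones. On the log2 scale the ratio was 1.59 ± 0.33 (SD, n = 5) with LPS and 0.31 ± 2.05 (SD, n = 5) without, and the difference did not pass an exact permutation test (two-sided, adjusted p = 0.729 over 6 ratio comparisons). Without both second non-stimulated libraries the difference was -0.21. The arms of Mir15b gave 31.5 and 280 reads of miR-15b-5p per read of miR-15b-3p in wt, 33.8 and 212 in 3'RR-deficient and 24.1 in Eµ-deficient non-stimulated libraries. With LPS there were 41.1 and 19.1, 19.8 and 20.9, and 10.8 in the same order, so 4 of 5 LPS libraries were below all non-stimulated ones. The log2 ratio of the arms was 1.75 lower with LPS (exact permutation p = 0.0635, adjusted p = 0.381), and the difference was -0.53 without both second non-stimulated libraries (exact permutation test, adjusted p = 0.714). For miR-15b-5p over miR-15a-5p, 7.59 to 19.6 reads to 1, it was 0.40 lower with LPS (exact permutation test, adjusted p = 0.595), and the difference was -0.082 without those libraries. Between 3'RR-deficient and wt cells the 3 log2 ratios differed by -0.31 (arms of Mir15b), 0.12 (miR-15b-5p over miR-15a-5p) and 0.39 (miR-16-5p over miR-15b-5p), with adjusted p between 0.729 and 0.771 by the exact permutation test. The smallest p these designs allow is 0.00794 for LPS and 0.0286 for genotype.

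**Figure D3:**
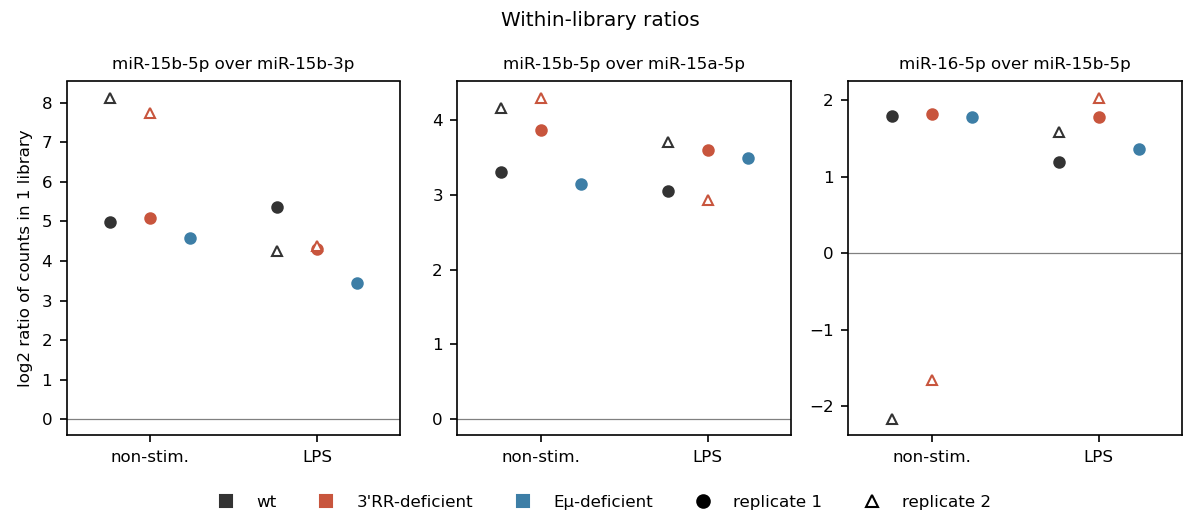
Log2 ratio of counts within 1 library for the arms of Mir15b, for the miR-15 paralogues and for miR-16-5p over miR-15b-5p, by condition. Each point is 1 library, filled circles are replicate 1, open triangles replicate 2, and colours give the genotype. In the first and last panel the second non-stimulated libraries lie away from all other points.

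The comparison of LPS with non-stimulated cells asked whether B-cell activation changed the members. None of the 5 passed the threshold (adjusted p under 0.05, edgeR's quasi-likelihood test over wt and 3'RR-deficient cells together), where 157 of 720 features did (21.8%). One member, miR-15b-5p, had an unadjusted p under 0.05, and the DESeq2 Wald test, which called 34.3% of features, called this 1 member. For no member did the 5 LPS libraries lie clear of the 5 non-stimulated ones, as they did for 155 of 988 features (15.7%). The log2 fold change of miR-15b-5p was -1.28 (SE 0.45, 95% interval -2.27 to -0.29, adjusted p = 0.0636 by edgeR). It was 0.06 (SE 0.64, interval -1.34 to 1.46) for miR-16-5p, 0.55 (SE 0.53, interval -0.61 to 1.72) for miR-15b-3p, -0.55 (SE 0.40, interval -1.43 to 0.33) for miR-15a-5p and 0.53 (SE 0.63, interval -0.85 to 1.91) for miR-195a-5p. With edgeR, adjusted p of these 4 lay between 0.354 and 0.945. The intervals left room for a change of more than 1 log2 unit in either direction for miR-16-5p, downward for miR-15a-5p and upward for miR-15b-3p and miR-195a-5p.

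The values turned on which non-stimulated libraries were used. Without both second non-stimulated libraries, an alternative chosen after seeing the data, all 5 members had log2 fold changes below 0, and none passed. miR-16-5p then stood at -0.82 (edgeR adjusted p = 0.0754), miR-15b-5p at -0.69 (adjusted p = 0.121), miR-15a-5p at -0.37, miR-195a-5p at -0.31 and miR-15b-3p at -0.17. Without both first libraries instead, 4 of 5 members passed, with miR-15b-5p lower (-1.83) and miR-16-5p (1.76), miR-15b-3p (1.58) and miR-195a-5p (2.12) higher. The share of all features called was 26.3% without the second and 38.6% without the first libraries. For miR-16-5p, miR-15b-3p and miR-195a-5p the direction of the LPS response was therefore opposite for the first and second non-stimulated libraries, and for miR-15b-5p and miR-15a-5p the estimates were below 0 with either set.

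**Figure D4:**
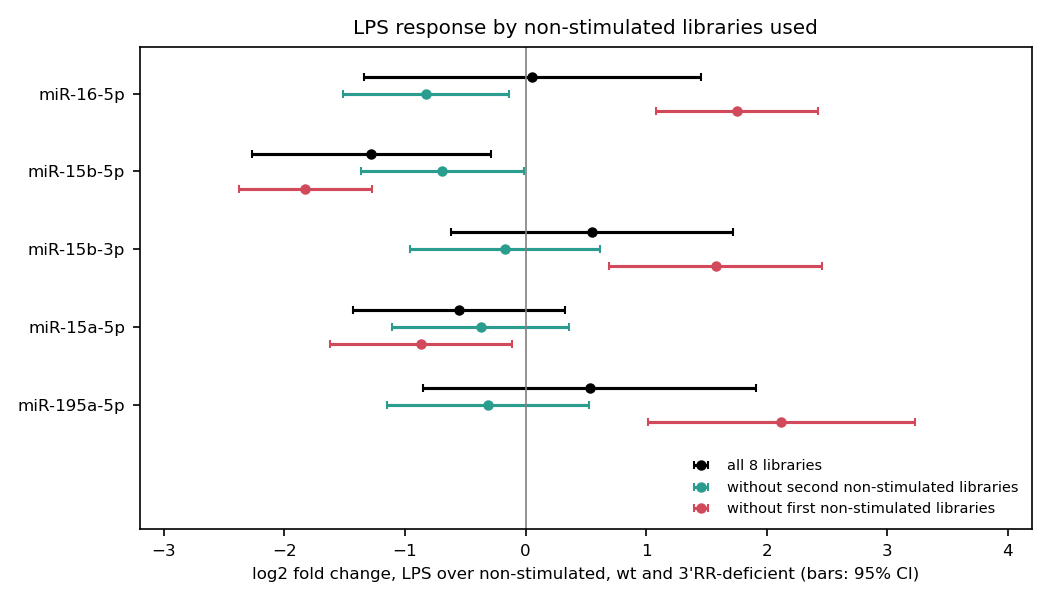
Log2 fold change of each member, LPS over non-stimulated, in wt and 3'RR-deficient cells together, with 95% confidence intervals from edgeR. Black points use all 8 libraries, green points leave out both second and red points both first non-stimulated libraries. The red intervals of miR-16-5p, miR-15b-3p and miR-195a-5p lie above 0, the green point of miR-16-5p lies at -0.82, and all 3 points of miR-15b-5p lie below 0.

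Within single genotypes no member passed either, by edgeR or by DESeq2, and none had an unadjusted p under 0.05. In wt cells 5 of 720 features passed by edgeR (0.694%) and 103 by DESeq2 (14.3%), and by edgeR log2 fold changes of the members ranged from -1.17 (miR-15b-5p) to 0.60 (miR-15b-3p), with SEs of 0.64 to 0.98. Their highest value was -0.09 without the second and 1.90 without the first wt non-stimulated library. In 3'RR-deficient cells 7 of 720 passed by edgeR (0.972%) and 97 by DESeq2 (13.5%), and by edgeR the members ranged from -1.39 (miR-15b-5p) to 0.51 (miR-15b-3p), with SEs of 0.64 to 0.98. Their highest value was -0.22 without the second and 2.00 without the first 3'RR-deficient non-stimulated library. The difference of the LPS responses between these genotypes was between -0.21 and 0.18 for the members on the log2 scale. By edgeR and by DESeq2, 0 of 720 features passed, with 5 and 9 at an unadjusted p under 0.05. Its SEs were 0.90 to 1.39, and the lowest value was -1.55 without the first wt and the highest 1.59 without the first 3'RR-deficient non-stimulated library, so near-equal responses cannot be read from it.

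Loss of the 3'RR was compared with wt over both conditions. By edgeR and by DESeq2, 0 of the 5 members passed and 0 had an unadjusted p under 0.05, beside 1 of 720 features passing by edgeR (0.139%) and 2 by DESeq2 (0.278%). The log2 differences (3'RR-deficient over wt) were 0.16 (SE 0.64) for miR-16-5p, -0.27 (SE 0.44) for miR-15b-5p, 0.03 (SE 0.53) for miR-15b-3p, -0.33 (SE 0.40) for miR-15a-5p and 0.46 (SE 0.63) for miR-195a-5p, each smaller than its SE. The widest interval, that of miR-16-5p, ran from -1.23 to 1.56. The fit had no term for departures shared by same-numbered libraries (r = 0.76 without and 0.17 with LPS), so these SEs and intervals include them. With a term for replicate number within each condition 0 members passed as well, beside 7 of 720 features. In non-stimulated cells alone the members ranged from -0.42 to 0.52 and with LPS from -0.37 to 0.40, with SEs of 0.64 to 0.98 in each. In non-stimulated cells 0 of 720 features passed by edgeR (9 at an unadjusted p under 0.05) and 1 by DESeq2 (0.139%), and with LPS 0 by edgeR (15 unadjusted) and 2 by DESeq2 (0.278%). The highest non-stimulated value was 1.84 without the first wt library, and the lowest was -1.43 without the first 3'RR-deficient one. The highest value with LPS was 0.87 without the second wt LPS library. Same-numbered non-stimulated libraries of both genotypes were near each other: 36281 and 35152 CPM for the first and 5324 and 6263 CPM for the second in miR-16-5p. Without both second non-stimulated libraries the differences ranged from -0.21 (miR-15a-5p) to 0.53 (miR-195a-5p) and none passed.

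Loss of Eµ was compared with wt across both conditions, as Eµ-deficient cells had 1 library in each. No member passed or had an unadjusted p under 0.05, by edgeR or DESeq2, beside 16 of 988 features passing by edgeR (1.62%) and 57 by DESeq2 (5.77%). The members ranged from -0.83 (miR-15b-5p) to 0.63 (miR-15b-3p) on the log2 scale, with SEs of 0.51 to 0.75 and edgeR adjusted p between 0.593 and 0.957. The highest value was 1.33 without the first wt non-stimulated library. Without both second non-stimulated libraries the value of miR-15b-5p was -0.20 and that of miR-15b-3p 0.72, and none passed. The wt samples are shared between this comparison and that of 3'RR-deficient cells.

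Some other products of the same loci passed the test with LPS. The table holds 9 listed rows of these loci, the partner arms, the hairpin rows and the products of Mir497, a neighbour of Mir195a, and 7 of them passed the filter on low counts. All 7 had log2 fold changes above 0 with LPS, with a median of 1.76 (2.06 over the 6 left without miR-497a-5p, which also has the shared seed) against 0.07 over all 720 features tested. Of these rows 2 passed the threshold, where 13.2% of features passed as higher, and both were products of Mir16-1, the copy of miR-16 in Dleu2. A rare row can pass the filter through the condition where it is high, so the count and median describe the list and support nothing further. In the genotype comparisons 0 of the list passed. The partner arms are shown because, unlike miR-16-5p, they differ between the copies (RefSeq, seed in capitals).
miR-16-1-3p: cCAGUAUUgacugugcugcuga
miR-16-2-3p: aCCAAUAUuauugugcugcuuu

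miR-16-1-3p stood at 37.6 and 9.66 CPM in wt, 26.9 and 5.62 CPM in 3'RR-deficient and 75.8 CPM in Eµ-deficient non-stimulated cells. With LPS it stood at 144 and 121, 90.0 and 123, and 62.0 CPM in the same order. In wt and 3'RR-deficient cells together it rose with LPS (log2 fold change 2.60, SE 0.59, edgeR adjusted p = 0.0118). It passed in neither genotype alone (edgeR adjusted p = 0.146 in wt and 0.165 in 3'RR-deficient cells). In these 2 genotypes all 4 LPS libraries were above all 4 non-stimulated ones, an order whose share over all features was not worked out. It was no higher with LPS in the single pair of Eµ-deficient libraries, so over all genotypes the conditions overlapped. The Mir16-1 hairpin row (ENSMUST00000175254) stood at 9.43 and 4.0, 8.98 and 5.03, and 15.2 CPM without and at 86.3 and 36.3, 33.8 and 40.8, and 43.1 CPM with LPS. The hairpin row rose with a log2 fold change of 2.81 (SE 0.54, edgeR adjusted p = 0.00717), and all 5 LPS libraries were above all 5 non-stimulated ones, as for 11.2% of features. It too passed in neither genotype alone (edgeR adjusted p = 0.0833 in wt and 0.159 in 3'RR-deficient cells). Without both second non-stimulated libraries both still passed, miR-16-1-3p at 1.82 (edgeR adjusted p = 0.00299) and the hairpin row at 2.28 (adjusted p = 0.0045). Fitted, scaled and adjusted over all small RNA features (3987 tested) neither passed, at 1.79 (edgeR adjusted p = 0.15) and 2.13 (adjusted p = 0.0772), and without the first wt LPS library miR-16-1-3p did not, at 2.46 (adjusted p = 0.0513). The hairpin row spans both arms but held fewer counts than miR-16-1-3p in every library (84 against 335 in the first wt non-stimulated library). It therefore did not take in all reads of that arm, and whether these 2 rows share some reads was not tested.

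miR-16-2-3p, the partner arm from Smc4, stood at 81.8 and 3.66 CPM in wt, 63.8 and 7.99 CPM in 3'RR-deficient and 75.6 CPM in Eµ-deficient non-stimulated cells. With LPS it stood at 58.3 and 150, 73.7 and 114, and 127 CPM in the same order. Its log2 fold change was 1.32 (edgeR adjusted p = 0.274). It was 0.35 without the second non-stimulated libraries (adjusted p = 0.547), and 3.95 without the first ones, where it passed (adjusted p = 0.000338). Per 1000 reads of miR-16-5p there were 0.767 to 3.17 reads of miR-16-1-3p without and 4.28 to 8.84 with LPS, with no overlap of the 5 and 5 libraries. For miR-16-2-3p there were 0.688 to 3.16 without and 3.58 to 8.76 with LPS, again with no overlap. Of the 987 other features tested, 8.92% had a ratio to miR-16-5p that was higher in all 5 LPS than in all 5 non-stimulated libraries. The ratios to miR-16-5p were looked at after the values were seen and have no test.

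**Figure D5:**
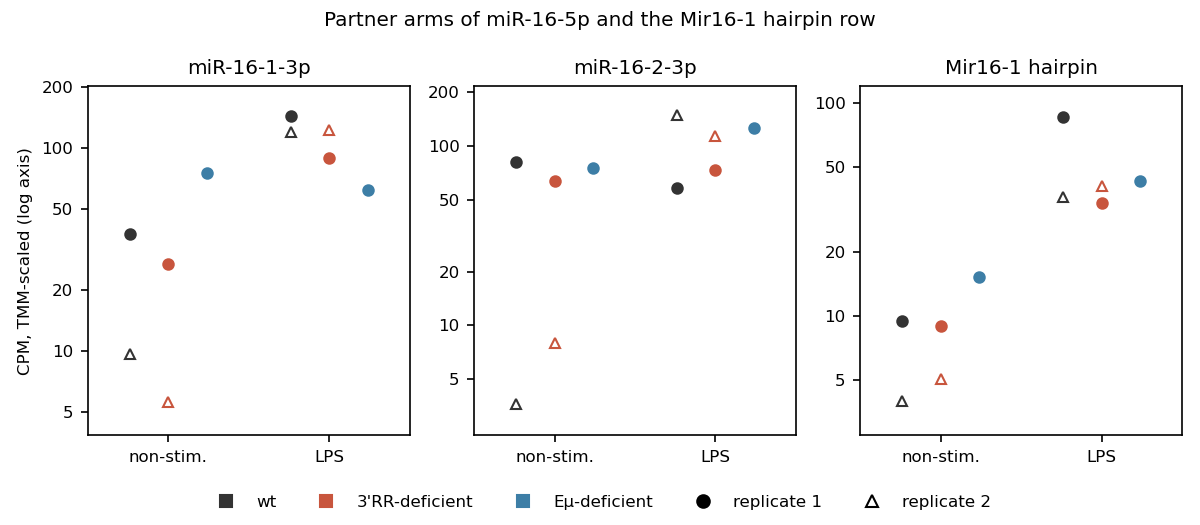
Levels in CPM (TMM-scaled, log axis) of both partner arms of miR-16-5p and of the Mir16-1 hairpin row by condition. Each point is 1 library, filled circles are replicate 1, open triangles replicate 2, and colours give the genotype. The LPS points of the hairpin row, at 33.8 to 86.3 CPM, lie above all its non-stimulated points, at 4.0 to 15.2 CPM.

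Other rows with the seed AGCAGCA were few. Of the 3 outside the members (miR-322-5p, miR-497a-5p and miR-6353) 2 were tested and 0 passed in any comparison with all libraries of the fit. miR-322-5p had a mean of 54.1 CPM over the 10 libraries, and its log2 fold change with LPS was -0.50 (SE 0.72, edgeR adjusted p = 0.653). Its direction also depended on the non-stimulated libraries: it passed as lower without the second ones (-1.45, edgeR adjusted p = 0.00808) and as higher without the first (1.67, adjusted p = 0.0171).

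Over the 10 libraries miR-16-5p and miR-195a-5p were alike (Pearson r = 0.94 of log2 CPM, Spearman rho = 0.83), as were miR-15b-5p and miR-15a-5p (r = 0.79, rho = 0.77). Between miR-16-5p and miR-15b-5p r was -0.63 and rho -0.13, and this negative r rested on the second non-stimulated libraries of wt and 3'RR-deficient cells. In the 8 libraries without them r of that pair was 0.85 (rho = 0.71), against 0.71 for miR-16-5p with miR-195a-5p and 0.68 for miR-15b-5p with miR-15a-5p. All r here and in the following are descriptions without a test, and those that follow are over all 10 libraries, so the same 2 libraries weigh on them. Among 152 other mature microRNAs of at least 100 CPM, the 3 most like miR-16-5p were miR-1839-5p (r = 0.98), miR-194-5p (r = 0.97) and miR-192-5p (r = 0.97). Those most like miR-15b-5p were miR-342-5p (r = 0.96), let-7d-3p (r = 0.95) and miR-1198-5p (r = 0.93). For miR-15b-3p they were miR-3535 (r = 0.88), miR-421-3p (r = 0.87) and miR-7a-1-3p (r = 0.87). For miR-15a-5p, miR-339-3p (r = 0.86), miR-378a-5p (r = 0.76) and miR-676-3p (r = 0.76) came first, and for miR-195a-5p, miR-1839-5p (r = 0.95), miR-3535 (r = 0.94) and miR-421-3p (r = 0.92).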

How the data were processed

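Small RNA (1 kit, NextFlex small RNA, 17 PCR cycles, 75 nt reads) was sequenced from 10 libraries. The deposited values are whole-number read counts per feature and library, not normalised by the authors. The submitters' processing notes name cutadapt 1.2.1, Bowtie2 and mm10. The counting program and the treatment of reads with several matches are not given in the sources used here, and reads of miR-16-5p fit 2 loci. The series' text gives the LPS dose in mg/ml where the sample labels and the study's methods give µg/ml. The study's text describes cells before and after stimulation, whereas the labels give 2 days of culture for all, so any effect of culture itself on the LPS comparison cannot be told apart.

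All 2015 microRNA rows were fitted with edgeR 4.0.16 in R 4.3.3 (TMM scaling, filterByExpr by group, quasi-likelihood F-test, two-sided, Benjamini-Hochberg over all features tested, threshold 0.05). The 8 libraries of wt and 3'RR-deficient cells were fitted together (720 features tested), with additive terms for the comparisons over both genotypes or conditions and a mean per group otherwise. Eµ-deficient cells were compared in a fit of all 10 libraries (988 tested), which also gave the CPM. p-values measure the spread between libraries, each from a pool of mice. That spread includes the departure of the second non-stimulated libraries, which wt and 3'RR-deficient cells shared (r = 0.76). Within-library log2 ratios used 0.5 added counts and an exact permutation test of the difference of means over libraries (two-sided), adjusted over 6 comparisons. Features were tied to GENCODE M21 (GRCm38) and RefSeq sequences, and 1093 of 1302 mature rows matched a RefSeq sequence by name. The members and lists were chosen with earlier results of these data known. Named were the 5 members, the other rows with their seed, and the partner arms and hairpins of their loci (values for those of at least 10 CPM on average), and for each member the 3 mature microRNAs of at least 100 CPM with the highest Pearson r of log2 CPM (1 CPM added) over the 10 libraries. Ratios to partner arms, the sum over members exclusion of either set of non-stimulated libraries, and the lists without miR-486b-5p or miR-497a-5p were added after the values were seen. Alternatives were DESeq2 1.42.0, other scalings and filters, all small RNA features, all 10 libraries, replicate blocks, a loess correction on GC content and leaving out each library.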

Additional observations from a re-analysis of the deposited data

Results flagged for a closer look

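One row of another RNA class overlapped the Mir15b and Mir16-2 hairpins and was higher with LPS. A piRNA cluster row on the opposite strand (chr3:69005002-69010007, minus strand) held between 10.9 and 18.7 CPM of all counts in non-stimulated and between 40.5 and 156 in LPS libraries, and 5 of 5 LPS libraries were above all non-stimulated ones. The same order was seen in 64 of 582 piRNA rows with a mean of at least 10 CPM of all counts (11.0%), so it was not particular to this row. It held 65 counts in the second wt non-stimulated library, where miR-15b-5p held 72158 and miR-16-5p 15989, so it did not take in most of their reads. Whether reads were counted by strand is not given in the sources used here. The strand of the reads that the row did hold therefore cannot be told, and this row was given no test.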

How the results depend on the processing

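No member passed in the LPS comparison over both genotypes. The count was 1 member under total count scaling (170 of 720 features called), the filter of 10 CPM (150 of 402), DESeq2 (247 of 720) and GC correction (129 of 501). Each time it was miR-15b-5p (log2 fold changes of -1.60, -1.39, -1.38 and -2.15). The count was 4 without both first non-stimulated libraries (292 of 756 features called), and 0 to 1 on leaving out each library (71 to 163 features called). Same-numbered libraries departed together between the non-stimulated groups (r of the replicate differences 0.76) and between the LPS groups (0.17), but not across conditions (-0.33 to -0.09), so the numbers were not taken as pairs for the LPS comparison. An additive replicate block called 0 members in any comparison. A replicate block within culture condition called 4 members, where 336 of 720 features passed. They were miR-15b-5p as lower (-1.16, edgeR adjusted p = 0.000162) and miR-16-5p (0.55, adjusted p = 0.0394), miR-15b-3p (0.77, adjusted p = 0.0189) and miR-195a-5p (0.96, adjusted p = 0.0181) as higher. In wt alone this block called 1 member and 182 of 720 features, and in 3'RR-deficient cells 1 member and 183 features. With GC correction it called 2 members, miR-15b-5p (-1.64) and miR-15a-5p (-0.99), where 228 of 501 features passed. It then called 2 in each genotype alone, where 151 features passed in wt and 131 in 3'RR-deficient cells. For Eµ-deficient against wt it then called 1, miR-15b-3p at 1.02, where 66 of 658 features passed, all 5 members were above 0 and miR-15b-5p stood at 0.016. miR-16-2-3p passed with the block within condition, without and with GC correction (2.18 and 1.01), but not with the additive block (2.11, edgeR adjusted p = 0.127). A crossed pairing, chosen after seeing the data, raised the features called for LPS in 3'RR-deficient cells from 7 to 83, with 0 members. Without both first non-stimulated libraries, wt and 3'RR-deficient cells each keep a lone non-stimulated library, which is assumed to vary like the other groups. No count of members is given for the single genotypes there. In the other comparisons the count of members was 0 under all alternatives run.

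Directions turned for miR-16-5p with LPS at no filter (-0.022), all small RNA features (-0.84), all 10 libraries (-0.10) and without both second non-stimulated libraries (-0.82), with a range of -0.34 to 0.62 on leaving out each library. They turned for miR-15b-3p at all features (-0.30), GC correction (-0.065, and -0.0696 with the replicate block within condition) and without the second libraries (-0.17), and for miR-195a-5p at all features (-0.38) and without the second libraries (-0.31). Fitting and scaling on all features moved the median of the microRNA rows from 0.07 to -0.54. miR-322-5p turned with the replicate block (0.17), with the block within condition (0.20) and without the first libraries (1.67), with a leave-one-out range of -0.97 to 0.26. For 3'RR-deficient against wt, miR-15b-3p turned under DESeq2 size factors (-0.083), the DESeq2 test (-0.083), total counts (-0.064), the 10 CPM filter (-0.0501) and the replicate block (-0.022). On leaving out each library that comparison ranged from -0.43 to 0.73 for miR-16-5p, -0.54 to 0.032 for miR-15b-5p, -0.34 to 0.36 for miR-15b-3p and -0.13 to 0.93 for miR-195a-5p. The log2 ratio of miR-16-5p over miR-15b-5p for LPS was -0.21 without the second libraries, and that of miR-15b-5p over miR-15a-5p for genotype -0.026 without the first. Leave-one-out ranges for genotype were -0.53 to 1.28 (miR-16-5p over miR-15b-5p), -0.091 to 0.37 (miR-15b-5p over miR-15a-5p) and -1.09 to 0.51 (arms of Mir15b). On leaving out each library, the lowest and highest member values ran from -1.98 to -0.76 and -0.09 to 1.90 for LPS in wt, -2.01 to -0.95 and -0.22 to 2.00 in 3'RR-deficient cells, -1.55 to -0.07 and -0.0037 to 1.59 for the difference of these responses, -1.43 to -0.41 and 0.27 to 1.84 for 3'RR-deficient against wt without LPS, -0.66 to -0.24 and 0.12 to 0.87 with LPS, and -1.09 to -0.57 and 0.37 to 1.33 for Eµ-deficient against wt. The cause of these changes was not tested. Depth limits miR-195a-5p most, at 22 counts in its lowest library.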
